A study of Mus musculus with 8 samples.

Results

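The transcripts described here encode the eukaryotic translation initiation factors, the proteins that bring a ribosome to an mRNA and place it on the start codon. They were taken as every row of the deposited expression table whose symbol starts with Eif followed by a digit from 1 to 6, which gave 58 of 23234 genes. The pattern also caught 4 Argonaute genes under their older symbols (Eif2c1 to Eif2c4), which act in microRNA silencing and are reported separately, and the eIF2 kinases and 4E-binding proteins, which regulate the factors. The cells were antigen-specific germinal centre B cells from mouse spleen, on a C57BL/6 background. Naive donor B cells carrying B1-8hi(KI/+), a knock-in antigen receptor for the hapten NP, and ERT2cre(KI/+), a tamoxifen-inducible recombinase, were transferred into wild-type CD45.1/45.2 recipients, which keep their own lymphocytes. Recipients received tamoxifen (3 mg, 3 days), then NP-CGG in alum, and donor NP+GL7+CD38- cells were sorted on day 10 from spleens pooled over 5 recipients. Light zone (LZ) cells were gated as CD86hi CXCR4lo and dark zone (DZ) cells as CD86lo CXCR4hi. Donors were Bach2(f/f)Prdm1(f/f), called dKO here, or Bach2(+/+)Prdm1(f/f), called sKO here, so that all 4 groups (dKO LZ, sKO LZ, dKO DZ and sKO DZ, n = 2 libraries each) carried floxed Prdm1 and the recombinase and differed in Bach2 and in zone. Groups with unfloxed Prdm1 were not analysed here. Whether the libraries of a group came from separate pools of recipients is not in the labels, and p-values therefore reflect only the spread between these libraries, which may be technical.

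As background, initiation starts when eIF2, loaded with GTP and the initiator methionyl-tRNA, joins eIF1, eIF1A, eIF3 and eIF5 on the small ribosomal subunit. The subunit is recruited to the mRNA cap by eIF4F, made of the cap binder eIF4E, the scaffold eIF4G and the helicase eIF4A, and the 4E-binding proteins hold eIF4E back until mTORC1 phosphorylates them. eIF2 is recharged by the exchange factor eIF2B, and 4 kinases that phosphorylate eIF2 under stress block that step. The title of the study names mTORC1 and survival signals in the formation of memory precursors in the germinal centre, and BACH2 is a transcriptional repressor of the basic leucine zipper family.

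Expression was deposited as FPKM, a level per length that is scaled to the total of mapped fragments. FPKM summed to 502214 to 540885 per library, and the smallest steps between low values put the LZ libraries at 1 to 1.1 times the depth of sKO LZ replicate 1 and the DZ libraries at 1.41 to 1.62 times. Transcripts of 8 germinal centre B cell genes summed to 2583 to 3057 FPKM in every library, and Cd86 with Cd83 summed to 369 to 464 FPKM in LZ against 103 to 137 FPKM in DZ libraries. The sum of 6 myeloid markers was 25.1 and 138 FPKM in dKO LZ, against 13.9 and 56.8 FPKM in sKO LZ, and it lay between 6.22 and 7.82 FPKM in DZ libraries, so replicate 2 stood apart in both LZ groups. Csf1r and Itgam stayed under 1 FPKM in every library. Some sums also separated the genotypes: the germinal centre sum was 2670 and 2651 FPKM in dKO LZ, against 3047 and 3057 FPKM in sKO LZ, and Cd86 with Cd83 summed to 369 and 377 FPKM in dKO LZ, against 411 and 464 FPKM in sKO LZ. Plasma cell markers summed to 355 and 355 FPKM in dKO LZ, against 314 and 298 FPKM in sKO LZ, mostly from Igj and Xbp1, with Sdc1 and Prdm1 under 1 FPKM throughout. Prdm1 itself was read at 0.980 and 0.967 FPKM in dKO LZ, against 0.0577 and 0.0184 FPKM in sKO LZ. Erythroid markers summed to 19.7 and 15.8 FPKM in dKO LZ, against 1.58 and 13.2 FPKM in sKO LZ. The part of these differences in the results on genotype was not tested. None of 3 NK markers reached 1 FPKM, nor did any of the 5 T cell markers measured other than Lck. Bach2 was read at 64.5 and 62.7 FPKM in dKO LZ and 49.8 and 53.4 FPKM in sKO LZ, and at 96.2 and 94.5 FPKM in dKO DZ and 76.2 and 74.6 FPKM in sKO DZ. A value per whole gene does not isolate the floxed part, so these levels check nothing about the deletion.

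Initiation factor mRNAs were abundant. The median of the means over all 8 libraries was 52.8 FPKM for the 58 members and 54.1 FPKM for the 57 tested, against 12.8 FPKM over the 10610 genes that passed the filter of at least 1 FPKM in at least 2 libraries. The most abundant were Eif5a (mean 586 FPKM), which helps ribosomes through stalls, the helicase Eif4a1 (417 FPKM), the start codon factor Eif1 (368 FPKM), and the eIF3 subunits Eif3h (297 FPKM) and Eif3k (264 FPKM). The lowest tested members were the Argonaute Eif2c4 (mean 0.957 FPKM) and the cap binder Eif4e3 (2.71 FPKM). Eif4e1b, an eIF4E relative known from oocytes, was read at 0.145 FPKM in sKO LZ replicate 1 and is listed at 0 in the other 7 libraries, and it was the one member that did not pass the filter.

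In light zone cells, most of the initiation factor mRNAs that passed the test were higher in dKO than in sKO cells. Of the 57 members tested, 24 rose and 4 fell in dKO LZ relative to sKO LZ (limma, Benjamini-Hochberg adjusted over all genes tested, threshold 0.05), which is 42.1% and 7.02% of them. Over all genes tested, 31.1% were called in this comparison, 18.4% higher and 12.7% lower. The median log2 difference was 0.18 over the members and 0.02 over all genes tested. Abundant genes were called more often, and among genes with a mean of at least 20 FPKM 45.5% of the 44 members rose, against 28.9% of all 3887 such genes. The 4 that fell were Eif2ak3, Eif2s3y, Eif3f and Eif2c4. With upper quartile scaling 23 members rose and 9 fell, and with quantile normalization 22 rose and 8 fell. Over all genes tested, 32.1% were called with upper quartile scaling, of which 45.5% were higher. With quantile normalization 30.4% were called, of which 50.3% were higher. In bulk samples, a different mix of cells and a different amount of an mRNA per cell cannot be told apart.

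The light zone count depended on single libraries. Calls over all genes tested also fell whenever an LZ library was left out, so this is not particular to the members. Leaving out dKO LZ replicate 1 gave 19 calls and leaving out dKO LZ replicate 2 gave 20. Leaving out sKO LZ replicate 1 gave 29 calls and leaving out sKO LZ replicate 2 gave 20. Without both LZ replicate 2 libraries, the pair with the most myeloid marker RNA, 11 members rose and 1 fell. The 12 members that kept their call under every alternative run were Eif1a, Eif2s1, Eif2s3x, Eif2b3, Eif3a, Eif3b, Eif4a1, Eif4a3, Eif4e, Eif4g1 and Eif5a, all higher in dKO LZ, and Eif2ak3, lower.

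In dark zone cells fewer members passed the test, and nearly all of those were higher in dKO. In dKO DZ 12 members rose and 1, Eif2s3y, fell relative to sKO DZ (limma, adjusted p under 0.05), out of 57. Those are 21.1% and 1.75% of the members, against 6.63% and 5.23% of all genes tested, of which 11.9% were called in either direction. The members' median log2 difference was 0.06, against 0.01 over all genes. Of the members called higher in dKO DZ, 11 were also called higher in dKO LZ, and the other was the amino acid sensing eIF2 kinase Eif2ak4. No DZ call was independent of single libraries, since none held in every fit that left out a library. Leaving out a DZ library lowered the calls over all genes as well, so the losses are not particular to the members. Among genes with a mean of at least 20 FPKM, 9 of 44 members rose in dKO DZ and 1 fell, with 20.5% higher, against 9.96% and 7.23% of such genes. With upper quartile scaling 10 members rose and 5 fell in dKO DZ. In that run 12% of all genes tested were called, of which 48.8% were higher. The test of whether the dKO minus sKO difference itself differed between zones called none of the 57 members and 3 of all genes (limma, 0.0283% called). At an unadjusted p under 0.05, 13 members (22.8%) and 1232 of all genes (11.6%) stood out in that test.

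**Figure D1:**
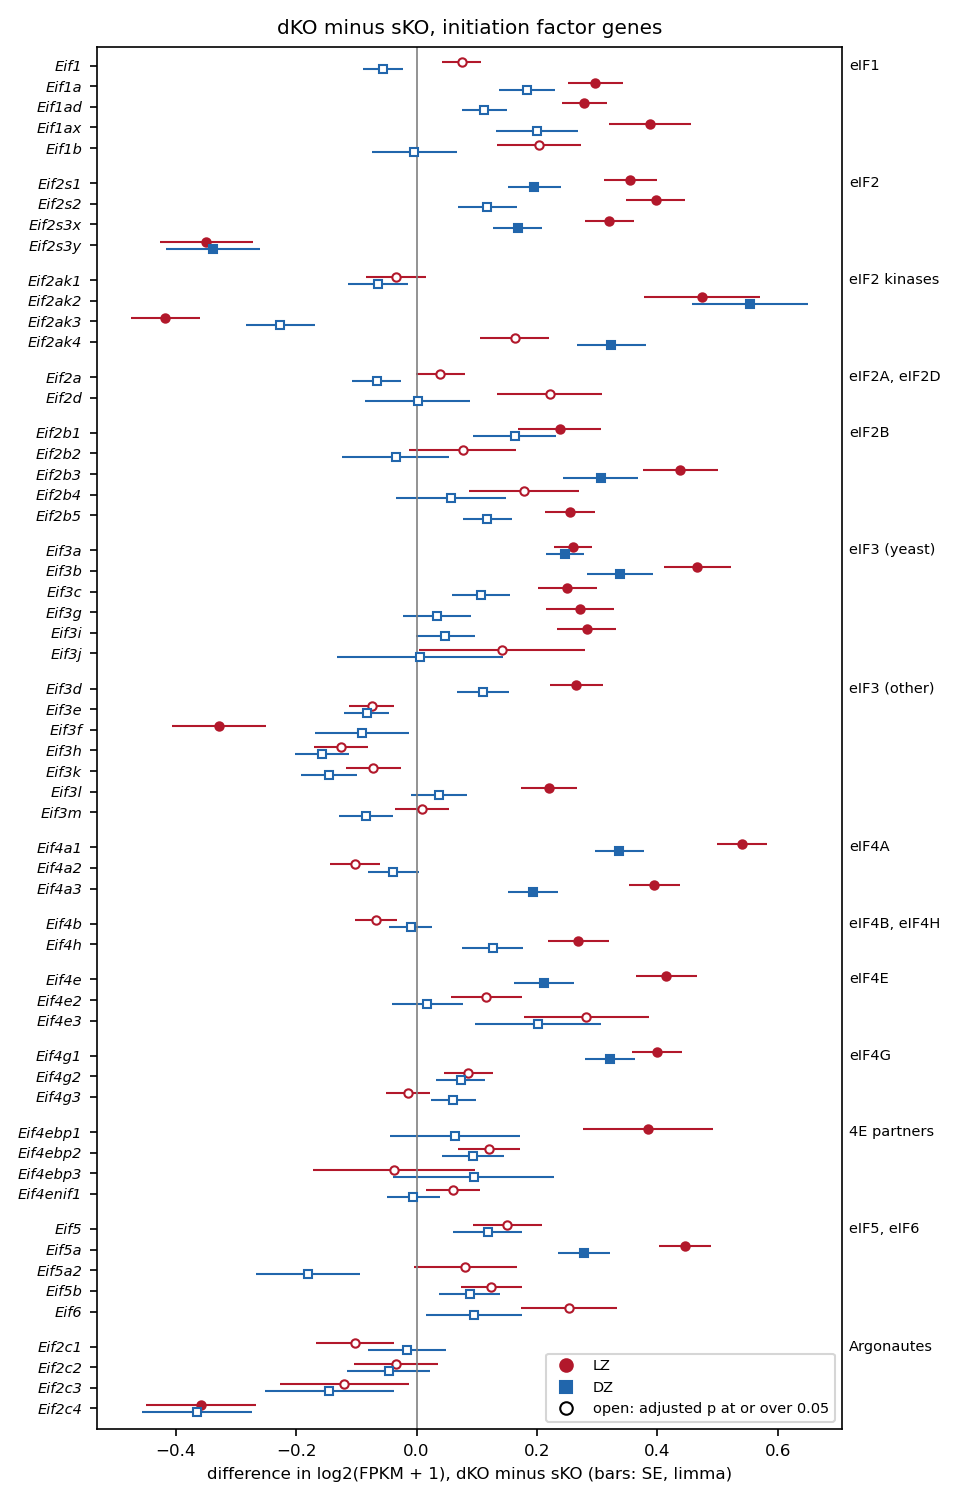
Difference between dKO and sKO libraries on the log2(FPKM + 1) scale for each member, grouped by complex. Circles show LZ and squares DZ, bars are the SE of the limma fit, and filled symbols have an adjusted p under 0.05. Most filled LZ symbols lie to the right of 0, while Eif2ak3, Eif2s3y, Eif3f and Eif2c4 lie to the left.

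Among the cap-binding factors, one gene of each eIF4F subunit rose. Eif4e, the cap binder, had 50.1 and 47.9 FPKM in dKO LZ, against 35.5 and 37.5 FPKM in sKO LZ. The log2 difference was 0.41 ± 0.05 (SE, limma, adjusted p = 0.00242). In dark zone cells Eif4e was at 38.9 and 38.4 FPKM in dKO and 32.2 and 34.2 FPKM in sKO. The difference there was 0.21 ± 0.05 (limma, adjusted p = 0.0443), a call lost in 13 of 18 alternative runs. The other cap binders did not pass. Eif4e2, which takes part in repression, was at 35.3 and 33.03 FPKM in dKO LZ and 31.01 and 31.9 FPKM in sKO LZ (limma, adjusted p = 0.186), and Eif4e3 at 2.19 and 2.75 FPKM in dKO LZ and 1.75 and 1.94 FPKM in sKO LZ (adjusted p = 0.0836). Eif4g1, the main scaffold that bridges eIF4E, eIF4A and eIF3, was read at 105 and 109 FPKM in dKO LZ, against 81.7 and 79.6 FPKM in sKO LZ, and at 99.8 and 94.3 FPKM in dKO DZ, against 77.1 and 77.8 FPKM in sKO DZ. Its difference was 0.40 ± 0.042 in LZ (limma, adjusted p = 0.00173) and 0.32 ± 0.042 in DZ (adjusted p = 0.00883). The other scaffolds did not pass: Eif4g2, which lacks the eIF4E site and serves cap-independent initiation, was at 157 and 156 FPKM in dKO LZ and 152 and 143 FPKM in sKO LZ (limma, adjusted p = 0.158), and Eif4g3 at 36.4 and 37.5 FPKM in dKO LZ and 37.3 and 37.3 FPKM in sKO LZ (adjusted p = 0.811).

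The helicase subunit showed the largest difference of any member that rose in LZ on the log2(FPKM + 1) scale, while with a pseudocount of 0.1 that of the low Eif2ak2 was larger, at 0.57 against 0.54 for Eif4a1. Eif4a1 stood at 584 and 567 FPKM in dKO LZ, against 389 and 402 FPKM in sKO LZ, and at 387 and 392 FPKM in dKO DZ, against 301 and 315 FPKM in sKO DZ. The log2 difference was 0.54 ± 0.041 in LZ (limma, adjusted p = 0.000918) and 0.34 ± 0.041 in DZ (adjusted p = 0.00795). Its paralog Eif4a2, which also joins eIF4F, was read at 171 and 168 FPKM in dKO LZ and 181 and 183 FPKM in sKO LZ, a difference of -0.10 that did not pass (limma, adjusted p = 0.112), although it passed as lower under upper quartile scaling or quantile normalization (adjusted p = 0.0349 and 0.0174). Eif4a1 over Eif4a2 was therefore 3.42 and 3.37 in dKO LZ, against 2.15 and 2.20 in sKO LZ. In the dark zone it was 2.71 and 2.84 in dKO DZ, against 2.03 and 2.25 in sKO DZ. The genotypes did not overlap in either zone, and the ratio was not tested. Of the 50-base words in the Eif4a1 coding transcript, 65.3% also occur in transcripts of other genes, 64.9% in the processed pseudogene Eif4a-ps4, so its level may depend on how shared reads were assigned. The share for Eif4a2 was 11.5%. Eif4a3, the helicase of the exon junction complex and not of eIF4F, had 128 and 129 FPKM in dKO LZ, against 100.5 and 94.6 FPKM in sKO LZ, a difference of 0.40 ± 0.042 (limma, adjusted p = 0.00181), with 24.4% of its words shared. Of the helicase stimulators, Eif4h rose to 159.8 and 156 FPKM in dKO LZ, against 135 and 127 FPKM in sKO LZ (log2 difference 0.27 ± 0.051, limma, adjusted p = 0.00976, and 0.0621 without dKO LZ replicate 1). Eif4b was at 128 and 127 FPKM in dKO LZ and 136 and 131 FPKM in sKO LZ, a difference of -0.07 (limma, adjusted p = 0.195) that passed as lower under upper quartile scaling or quantile normalization (adjusted p = 0.0288 and 0.0163).

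Of the eIF4E inhibitors, only Eif4ebp1, the mTORC1 substrate 4E-BP1, passed. It had 22.6 and 22.8 FPKM in dKO LZ, against 18.9 and 15.5 FPKM in sKO LZ, with a log2 difference of 0.38 ± 0.11 (limma, adjusted p = 0.0376). The call was lost without dKO LZ replicate 1, dKO LZ replicate 2 or sKO LZ replicate 2 (limma, adjusted p = 0.121, 0.13 and 0.134). It was also lost with only the libraries compared and with no filter on low genes (limma, adjusted p = 0.0692 and 0.0709). Eif4ebp2, the most abundant of them at 59.7 and 57.7 FPKM in dKO LZ and 52.5 and 55.4 FPKM in sKO LZ, differed by 0.12 (limma, adjusted p = 0.127). Eif4ebp3, with 65.5% of its words shared with other transcripts, was at 11.6 and 9.22 FPKM in dKO LZ and 10.7 and 10.5 FPKM in sKO LZ, and Eif4enif1, which carries eIF4E into the nucleus, at 43.5 and 43.8 FPKM in dKO LZ and 42.6 and 41.02 FPKM in sKO LZ. The level of Eif4e over the summed levels of the 3 binding proteins was 0.534 and 0.533 in dKO LZ, against 0.432 and 0.460 in sKO LZ, and 0.402 and 0.398 in dKO DZ, against 0.364 and 0.369 in sKO DZ. These mRNA ratios did not overlap between genotypes and were not tested. They say nothing of phosphorylation, which sets how much of each binding protein is active.

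**Figure D2:**
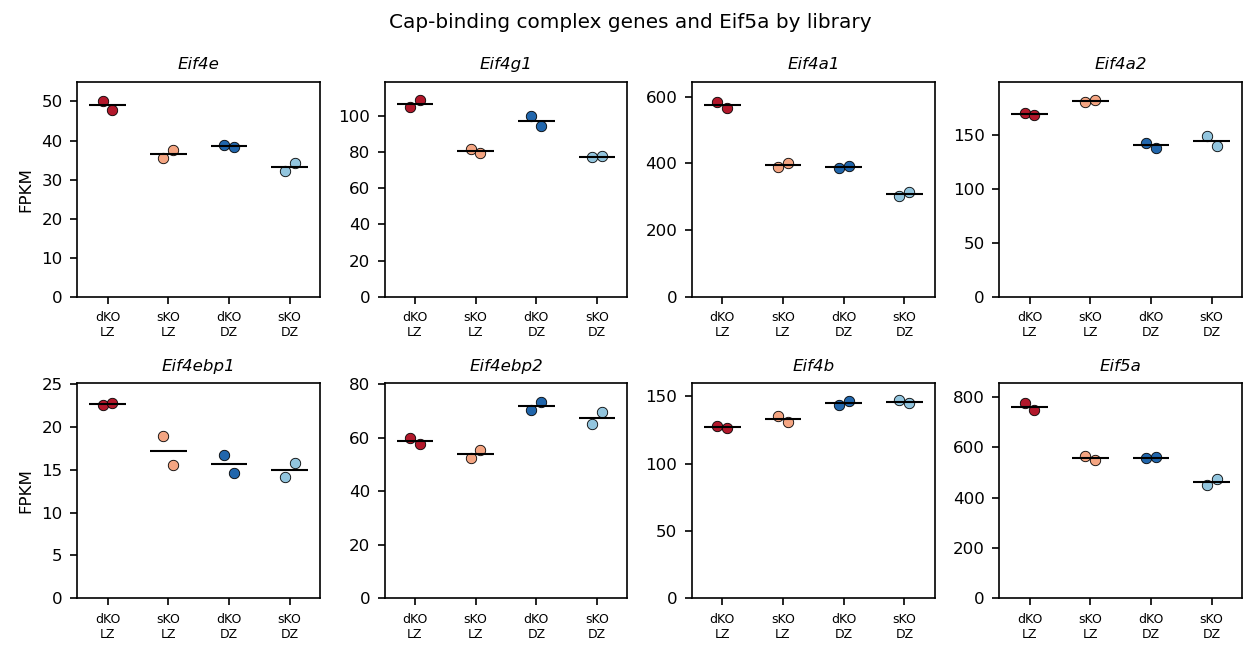
FPKM of each library for eIF4F subunits, 4E-binding proteins, Eif4b and Eif5a. Points are libraries, horizontal lines are the mean of 2 libraries, and dKO stands to the left of sKO in each zone. Eif4e, Eif4g1, Eif4a1 and Eif5a were called higher in dKO in both zones, while Eif4a2 and Eif4b were called in neither.

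The promoters of Eif4e, Eif4g1, Eif4a1 and Eif5a, picked among members that rose in dKO LZ, are shown. Each holds CACGTG, the E-box that MYC and related factors are known to bind, before an annotated start. CACGTG was not found for the eIF4F genes Eif4a2 and Eif4g3, whose promoters may not have been at hand. It was found in Eif5a2, which did not rise, at -142 and -117. Sequences are RefSeq's on GRCm38.p6, 5′ to 3′ on the strand of the gene, with the motif in capitals. The first motif base lies at position -64 from the start of Eif4e, -54 for Eif4g1, -74 for Eif5a and -189 for Eif4a1. Further matches, not shown, lie at -228 for Eif4e, at 16 for Eif4g1, and at -185 and -178 from other annotated starts of Eif5a.
Eif4e, chr3:138527178-138527267, + strand: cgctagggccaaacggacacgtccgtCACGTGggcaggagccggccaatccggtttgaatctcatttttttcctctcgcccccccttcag
Eif4g1, chr16:20672637-20672726, + strand: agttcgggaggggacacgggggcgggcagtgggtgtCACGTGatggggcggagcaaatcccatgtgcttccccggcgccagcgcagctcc
Eif5a, chr11:69921407-69921496, - strand: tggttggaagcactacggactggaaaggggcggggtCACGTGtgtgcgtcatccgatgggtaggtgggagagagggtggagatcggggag
Eif4a1, chr11:69672554-69672643, - strand: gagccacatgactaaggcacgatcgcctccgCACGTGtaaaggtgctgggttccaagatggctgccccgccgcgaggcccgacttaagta
A promoter window of 250 bases before to 50 after the start was at hand for 46 of the 58 members, and CACGTG (its own reverse complement, so one search covers both strands) was in 10 of them, 21.7%, against 8.09% of 27025 genes. In the window of 100 bases before to 50 after the start it was in 8 members (17.4%), against 5.00% of genes. A gene was counted if the window of any of its annotated starts held the motif. These shares were not matched for the number of starts or for expression level. Of the 20 members with a promoter that rose in dKO LZ, 6 held it, and of the other 26 members, 4 did. TGANTCA, searched on both strands, is a looser form of TGA(C/G)TCA. The latter is the core of AP-1 type sites and of the longer element that BACH and MAF proteins recognise. TGANTCA, with any middle base, was in 5 members (10.9%), against 8.97% of genes. A match is a description of the letters in the window and not of binding.

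Eif5a, which with its hypusine modification aids elongation and termination, had 777 and 748 FPKM in dKO LZ, against 567 and 551 FPKM in sKO LZ, and 559 and 561 FPKM in dKO DZ, against 450.3 and 473 FPKM in sKO DZ. The log2 difference was 0.45 ± 0.043 in LZ (limma, adjusted p = 0.00142) and 0.28 ± 0.043 in DZ (adjusted p = 0.014). Its paralog Eif5a2 was read at 4.67 and 5.27 FPKM in dKO LZ and 4.78 and 4.50 FPKM in sKO LZ and did not pass (limma, adjusted p = 0.516). None of the subunit joining factors passed in LZ. Eif5, the GTPase activator of eIF2, was at 119.6 and 123 FPKM in dKO LZ and 114 and 104 FPKM in sKO LZ (limma, adjusted p = 0.0906), and Eif5b, the joining GTPase, at 28.4 and 29.5 FPKM in dKO LZ and 27.6 and 25.4 FPKM in sKO LZ (adjusted p = 0.111). Eif6, which keeps the large subunit free, was at 63.8 and 62.6 FPKM in dKO LZ and 53.6 and 52.1 FPKM in sKO LZ, without overlap (0.25, limma, adjusted p = 0.0545), and passed when either sKO DZ library was left out of the fit (limma, adjusted p = 0.00696 and 0.00709), and with only the libraries compared (adjusted p = 0.0261).

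In eIF2 itself, the alpha, beta and X-linked gamma subunits were higher in dKO LZ, while the Y-linked gamma subunit was lower. Eif2s1, the alpha subunit that the stress kinases phosphorylate, had 67.7 and 71.1 FPKM in dKO LZ, against 52.9 and 55.2 FPKM in sKO LZ, a log2 difference of 0.36 ± 0.044 (limma, adjusted p = 0.0027). Eif2s2, the beta subunit, had 84.8 and 85 FPKM in dKO LZ, against 63.8 and 64.6 FPKM in sKO LZ, a difference of 0.40 ± 0.049 (limma, adjusted p = 0.0026), with 27.8% of its words shared with other transcripts. In dKO DZ Eif2s1 rose by 0.20 (limma, adjusted p = 0.0394), while Eif2s2 differed by 0.12 and did not pass (adjusted p = 0.178). The gamma subunit, which binds GTP and the initiator tRNA, is encoded by a pair of genes on the sex chromosomes. Eif2s3x was read at 59.6 and 58.04 FPKM in dKO LZ, against 47.8 and 46.01 FPKM in sKO LZ (0.32 ± 0.04, limma, adjusted p = 0.00274). Eif2s3y was read at 41.5 and 43.6 FPKM in dKO LZ, against 51.3 and 57.7 FPKM in sKO LZ (-0.35 ± 0.078, limma, adjusted p = 0.0175), and at 40.6 and 35.8 FPKM in dKO DZ, against 48.4 and 48.6 FPKM in sKO DZ (-0.34 ± 0.078, adjusted p = 0.0409). The X-linked copy exceeded the Y-linked one in every dKO library and was below it in every sKO library: the ratio was 1.44 and 1.33 in dKO LZ, 0.932 and 0.798 in sKO LZ, 1.31 and 1.48 in dKO DZ, and 0.953 and 0.990 in sKO DZ. Eif2s3y was called in LZ with all libraries but not without dKO LZ replicate 1, dKO LZ replicate 2 or sKO LZ replicate 2 (limma, adjusted p = 0.0913, 0.0548 and 0.0703). Of 3 other Y-linked genes, Kdm5d was lower in dKO LZ (-0.32, limma, adjusted p = 0.011), while Ddx3y (0.07, adjusted p = 0.278) and Uty (-0.12, adjusted p = 0.301) did not pass, and in dKO DZ Ddx3y was higher (0.25, adjusted p = 0.0198). Xist, which is expressed in female cells, was at most 0.0412 FPKM in any library, while Ddx3y was at least 26.1 FPKM in every library. None of the Eif2s3y words and 36.2% of the Eif2s3x words occur in transcripts of other genes.

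The eIF2 kinases did not move together. Eif2ak3 encodes PERK, the kinase of the endoplasmic reticulum stress response, and had 24.1 and 23.7 FPKM in dKO LZ, against 34.04 and 30.5 FPKM in sKO LZ, and 52.7 and 54.3 FPKM in dKO DZ, against 63.97 and 61.5 FPKM in sKO DZ. Its log2 difference was -0.42 ± 0.058 in LZ (limma, adjusted p = 0.00367) and -0.23 ± 0.058 in DZ, which did not pass (adjusted p = 0.0539). Eif2ak2, the double-stranded RNA kinase PKR and an interferon-inducible gene, was low throughout. It had 5.62 and 5.33 FPKM in dKO LZ, against 3.79 and 3.54 FPKM in sKO LZ (0.47 ± 0.096, limma, adjusted p = 0.0128), and 7.70 and 6.27 FPKM in dKO DZ, against 4.30 and 4.53 FPKM in sKO DZ (0.55 ± 0.096, adjusted p = 0.0186). Its LZ call was lost without dKO LZ replicate 1 or sKO LZ replicate 2 (limma, adjusted p = 0.0695 and 0.0576). Eif2ak4, the amino acid sensor GCN2, had 8.06 and 8.71 FPKM in dKO LZ and 7.33 and 7.42 FPKM in sKO LZ (limma, adjusted p = 0.0742), and 12.9 and 13.6 FPKM in dKO DZ, against 10.3 and 10.4 FPKM in sKO DZ (0.32 ± 0.058, adjusted p = 0.0199). Eif2ak1, the heme-regulated kinase, was at 27.7 and 29.5 FPKM in dKO LZ and 29.6 and 28.9 FPKM in sKO LZ (limma, adjusted p = 0.647). The promoter of Eif2ak3 is shown because it is the initiation gene with the largest fall and it holds TGANTCA, at position -185 from the start, in capitals. Its middle base is T, so the match is not TGA(C/G)TCA.
Eif2ak3, chr6:70844295-70844384, + strand: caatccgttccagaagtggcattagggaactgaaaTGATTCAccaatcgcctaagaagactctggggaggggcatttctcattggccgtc

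Of the 5 subunits of the exchange factor eIF2B, 3 rose in dKO LZ and none fell, where 18.4% of all genes tested rose and 12.7% fell. Eif2b3, the gamma subunit, had 15.8 and 14.5 FPKM in dKO LZ, against 10.6 and 11.2 FPKM in sKO LZ (0.44 ± 0.063, limma, adjusted p = 0.00402). In the dark zone it had 10.5 and 9.86 FPKM in dKO, against 7.99 and 8.08 FPKM in sKO (0.31 ± 0.063, limma, adjusted p = 0.0292). Eif2b5, the catalytic epsilon subunit, was at 33.7 and 34.9 FPKM in dKO LZ, against 28.7 and 28.5 FPKM in sKO LZ (0.25 ± 0.041, limma, adjusted p = 0.00592). Eif2b1, of the regulatory part that senses phosphorylated eIF2, was at 23.1 and 21.3 FPKM in dKO LZ, against 18.4 and 18.9 FPKM in sKO LZ (0.24 ± 0.069, limma, adjusted p = 0.0418). That last call was near the threshold and was lost without any one of the 4 LZ libraries (limma, adjusted p = 0.189, 0.0645, 0.123 and 0.0966), and without either sKO DZ library (adjusted p = 0.0638 and 0.0642). It was also lost with upper quartile scaling, quantile normalization, no filter, no intensity trend or only the libraries compared (limma, adjusted p = 0.0945, 0.0814, 0.0669, 0.0519 and 0.0641). Eif2b4 was at 21.1 and 20.02 FPKM in dKO LZ and 19.7 and 16.5 FPKM in sKO LZ and did not pass (limma, adjusted p = 0.186), nor did Eif2b2 (adjusted p = 0.556).

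Factors that can deliver the initiator tRNA without eIF2 did not pass in LZ: Eif2a was read at 51.01 and 51.1 FPKM in dKO LZ and 50.6 and 48.7 FPKM in sKO LZ (limma, adjusted p = 0.504), and Eif2d at 31.8 and 28.9 FPKM in dKO LZ and 27.4 and 24.4 FPKM in sKO LZ (adjusted p = 0.1).

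**Figure D3:**
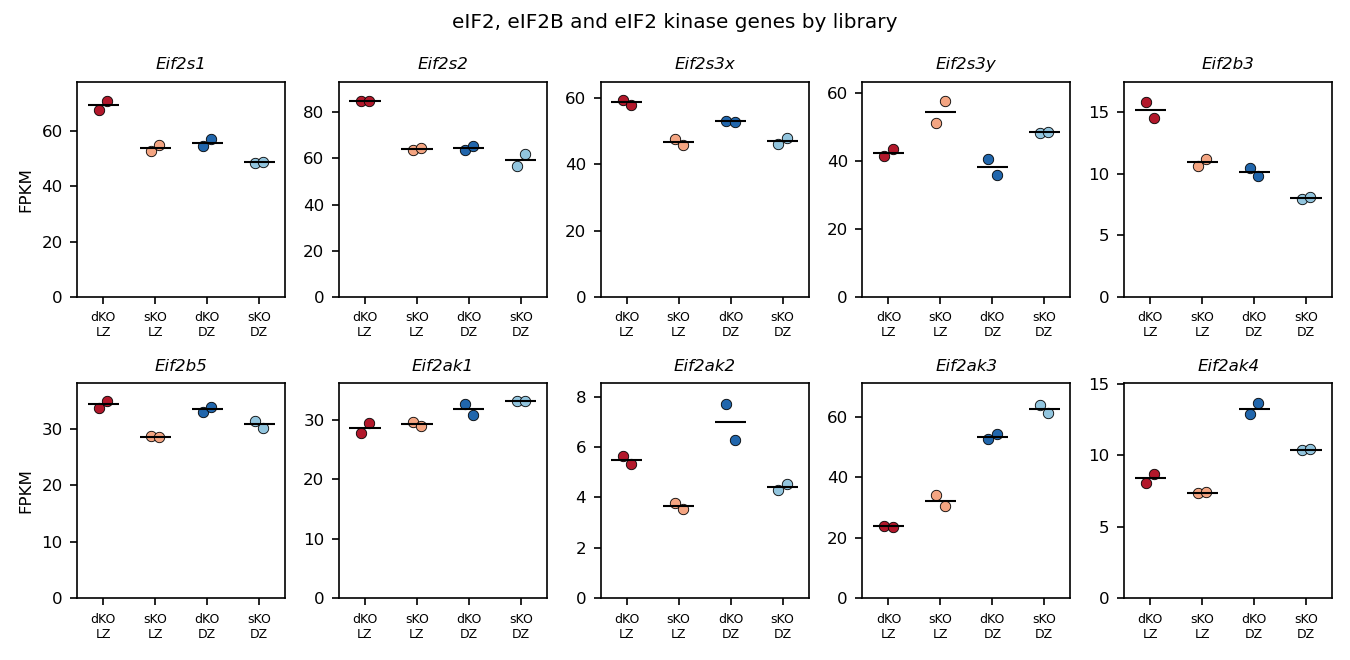
FPKM of each library for the eIF2 subunits, eIF2B subunits Eif2b3 and Eif2b5, and the 4 eIF2 kinases. Points are libraries, horizontal lines are the mean of 2 libraries, and dKO stands to the left of sKO in each zone. Eif2s3x and Eif2s3y lie on opposite sides in the genotypes, and Eif2ak3 is lower in LZ than in DZ in both.

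The eIF3 complex, the largest of the factors and the platform that links eIF4F to the small subunit, split by subunit. Of the 6 subunits with a counterpart in Saccharomyces cerevisiae (Eif3a, Eif3b, Eif3c, Eif3g, Eif3i and the loosely bound Eif3j), 5 rose in dKO LZ and none fell. Of the 7 without one (Eif3d, Eif3e, Eif3f, Eif3h, Eif3k, Eif3l and Eif3m), 2 rose and 1 fell. Over all genes tested 18.4% rose and 12.7% fell. Eif3b, a scaffold subunit of the core, had 111 and 105 FPKM in dKO LZ, against 80.4 and 75.1 FPKM in sKO LZ, a log2 difference of 0.47 ± 0.055 (limma, adjusted p = 0.00229). Eif3a, the largest subunit, had 126 and 125 FPKM in dKO LZ, against 104 and 105 FPKM in sKO LZ (0.26 ± 0.031, limma, adjusted p = 0.00235). Both also rose in dKO DZ, Eif3b by 0.34 ± 0.055 (limma, adjusted p = 0.0158) and Eif3a by 0.25 ± 0.031 (adjusted p = 0.00841), the only eIF3 subunits called there. Eif3i was at 186 and 188 FPKM in dKO LZ, against 156 and 151 FPKM in sKO LZ (0.28 ± 0.049, limma, adjusted p = 0.00751), and Eif3c at 144 and 142 FPKM in dKO LZ, against 125 and 115 FPKM in sKO LZ (0.25 ± 0.049, adjusted p = 0.0108). Eif3g rose by 0.27 ± 0.057 (limma, adjusted p = 0.0144). The Eif3c call was lost without either dKO LZ library (limma, adjusted p = 0.0638 and 0.0517), and the Eif3g call without dKO LZ replicate 1, dKO LZ replicate 2 or sKO LZ replicate 2 (adjusted p = 0.0779, 0.0559 and 0.0627).

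Among the subunits without a yeast counterpart, Eif3d, which can bind the cap of selected mRNAs in human cells, was at 115 and 109 FPKM in dKO LZ, against 94.5 and 91.6 FPKM in sKO LZ (0.27 ± 0.044, limma, adjusted p = 0.00644). Eif3l was at 129 and 125 FPKM in dKO LZ, against 112 and 106 FPKM in sKO LZ (0.22 ± 0.047, limma, adjusted p = 0.015). Its call was lost without dKO LZ replicate 1, dKO LZ replicate 2 or sKO LZ replicate 2 (limma, adjusted p = 0.0869, 0.0542 and 0.0593), and with quantile normalization (adjusted p = 0.0682). Eif3f went the other way, with 209 and 192 FPKM in dKO LZ, against 254 and 249.97 FPKM in sKO LZ (-0.33 ± 0.078, limma, adjusted p = 0.0215). In the dark zone its libraries overlapped, at 261 and 254 FPKM in dKO and 253 and 296 FPKM in sKO (limma, adjusted p = 0.515). The LZ call of Eif3f was lost without dKO LZ replicate 2, sKO LZ replicate 1 or sKO LZ replicate 2 (limma, adjusted p = 0.111, 0.0726 and 0.0671). Eif3h was at 273 and 265 FPKM in dKO LZ and 290.4 and 297 FPKM in sKO LZ (-0.13, limma, adjusted p = 0.0766), and passed as lower with upper quartile scaling, as did Eif3e and Eif3k (adjusted p = 0.0166, 0.0242 and 0.0429). With quantile normalization Eif3h and Eif3e passed as lower (adjusted p = 0.0101 and 0.0246). The mean FPKM of the 6 subunits over that of the 7 was 0.631 and 0.651 in dKO LZ, against 0.509 and 0.493 in sKO LZ, and 0.534 and 0.544 in dKO DZ, against 0.461 and 0.460 in sKO DZ. The ratio is taken within a library, so a scaling factor per library does not move it, and the genotypes did not overlap in either zone. The split was drawn with the levels known and has no test. Read assignment is uncertain for Eif3m, Eif3h and Eif3e, with 37.3%, 26.2% and 22.0% of their words shared with other transcripts, while Eif3a, Eif3b and Eif3f share none.

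The promoter of Eif3f is shown because its start differs from those above. It holds TGATTCACGTG, in which TGANTCA and CACGTG overlap, beginning at position -73, and its annotated start opens with a C followed by a run of pyrimidines, the pattern of terminal oligopyrimidine mRNAs that mTORC1 and LARP1 are known to control. Both are in capitals, and the window runs from 90 bases before to 15 after the start. The middle base of TGANTCA is T here too, so the match is not TGA(C/G)TCA.
Eif3f, chr7:108934325-108934429, + strand: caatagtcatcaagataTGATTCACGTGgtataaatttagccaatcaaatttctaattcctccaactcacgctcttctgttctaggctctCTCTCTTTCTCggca
TGANTCA and CACGTG overlapping in this way, in the letters CA and on either strand, were in the windows of 20 of 27025 genes (0.074%), and in that of no other member. This overlap was searched for after Eif3f was seen. The pyrimidine start, a C and at least 4 pyrimidines from the annotated start, was found in Eif3f and Eif2s3x, 4.35% of the members with a promoter against 3.01% of genes. A start annotated a few bases off would hide it.

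**Figure D4:**
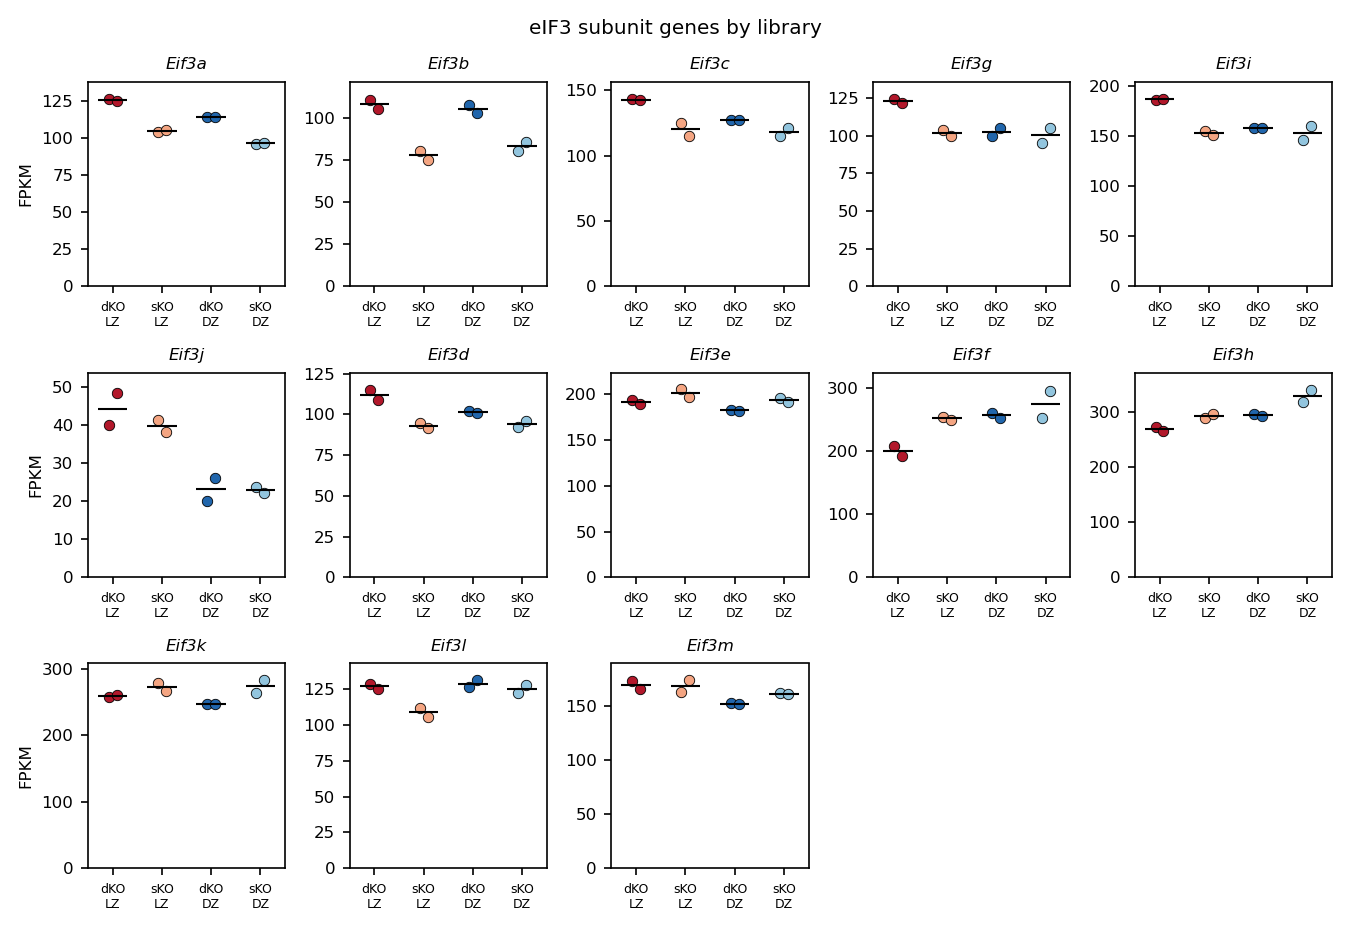
FPKM of each library for the 13 eIF3 subunits. Points are libraries, horizontal lines are the mean of 2 libraries, and dKO stands to the left of sKO in each zone. In LZ, Eif3a, Eif3b, Eif3c, Eif3d, Eif3g, Eif3i and Eif3l were called higher in dKO, and Eif3f was called lower.

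Of the 5 members whose symbol starts with Eif1, 3 rose in dKO LZ and none fell, beside 18.4% and 12.7% of all genes tested. Together, eIF1 and eIF1A keep the scanning ribosome open until the start codon is met, a role not given here to Eif1ad. Eif1ax, the X-linked gene of eIF1A, had 147 and 153 FPKM in dKO LZ, against 122 and 107 FPKM in sKO LZ (0.39 ± 0.068, limma, adjusted p = 0.00779). Its lower expressed relative Eif1a had 33.9 and 32.7 FPKM in dKO LZ, against 26.4 and 27.5 FPKM in sKO LZ (0.30 ± 0.046, limma, adjusted p = 0.0052). Eif1ad, named for its eIF1A-like domain, had 30.9 and 31.1 FPKM in dKO LZ, against 25.2 and 25.6 FPKM in sKO LZ (0.28 ± 0.037, limma, adjusted p = 0.0032). None of the 3 passed in DZ, where their differences were 0.20, 0.18 and 0.11. Eif1, the start codon selector, was at 402 and 409 FPKM in dKO LZ and 388 and 382 FPKM in sKO LZ and did not pass (limma, adjusted p = 0.134), nor did its close relative Eif1b, at 65.4 and 62.1 FPKM in dKO LZ and 52.9 and 57.7 FPKM in sKO LZ (adjusted p = 0.0694).

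Of the 4 Argonautes, none rose and 1 fell in dKO LZ, where 18.4% of all genes tested rose and 12.7% fell. The gene that fell was Eif2c4 (Ago4), at 0.506 and 0.570 FPKM in dKO LZ, against 0.992 and 0.949 FPKM in sKO LZ (-0.36 ± 0.092, limma, adjusted p = 0.0281). Its levels lie near the filter and the size depends on the pseudocount, with -0.50 at 0.5 and -0.75 at 0.1. The call was lost with only the libraries compared (limma, adjusted p = 0.0792), and it was lost without any one of the 4 LZ libraries (limma, adjusted p = 0.115, 0.075, 0.0835 and 0.0727). Eif2c1 (Ago1) was at 10.2 and 9.89 FPKM in dKO LZ and 10.4 and 11.4 FPKM in sKO LZ, and Eif2c2 (Ago2), the slicing Argonaute, at 13.99 and 13.5 FPKM in dKO LZ and 13.3 and 15.01 FPKM in sKO LZ. Eif2c3 (Ago3) was at 2.73 and 2.39 FPKM in dKO LZ and 2.52 and 3.24 FPKM in sKO LZ, and none of these 3 passed. Both dKO LZ libraries lay below both sKO LZ libraries for Eif2c1, and the genotypes overlapped for Eif2c2 and Eif2c3. Leaving the Argonautes out, 24 of 53 members rose and 3 fell in dKO LZ (45.3% and 5.66%), beside the same shares of all genes.

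Between zones, dKO and sKO cells gave different counts. In dKO cells 21 members were called higher and 11 lower in LZ than in DZ (limma, adjusted p under 0.05), which is 36.8% and 19.3%, against 18.0% and 16.1% of all genes, 34.1% in all. In sKO cells 9 were called higher and 15 lower in LZ, which is 15.8% and 26.3%, against 15.2% and 16.1% of all genes, 31.2% in all. The difference between these zone differences is the interaction above, for which no member passed. The 2 zone comparisons share no library. Among genes with a mean of at least 20 FPKM, 19 of 44 members were higher in LZ and 7 lower in dKO, against 23.3% and 21.7% of such genes, and 8 were higher and 11 lower in sKO, against 16.6% and 23.9%. The dKO and sKO counts over all members fell when a compared library was left out, and so did the calls over all genes tested. Depth, the myeloid sum and Lck (53.0 to 64.6 FPKM in LZ, against 32.7 to 35.1 FPKM in DZ) also differed between zones, and their part in these counts was not tested. Without both LZ replicate 2 libraries 14 members were called in dKO and 12 in sKO.

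The largest zone difference was that of Eif2ak3, which was lower in LZ in both genotypes. It had 24.1 and 23.7 FPKM in LZ, against 52.7 and 54.3 FPKM in DZ, in dKO (-1.13 ± 0.058, limma, adjusted p = 8.99e-05). In sKO it had 34.04 and 30.5 FPKM in LZ, against 63.97 and 61.5 FPKM in DZ (-0.94 ± 0.058, limma, adjusted p = 0.000221). Eif2ak4 was lower in LZ as well, with a difference of -0.60 ± 0.058 in dKO (limma, adjusted p = 0.0007) and -0.44 ± 0.058 in sKO (adjusted p = 0.00257), with the libraries given above not overlapping between zones. Eif3j, the subunit that sits in the mRNA entry channel, was the member most above DZ in LZ. It was read at 40 and 48.5 FPKM in LZ, against 20.1 and 26.2 FPKM in DZ, in dKO (0.91 ± 0.14, limma, adjusted p = 0.00378), and at 41.5 and 38.3 FPKM in LZ, against 23.7 and 22.1 FPKM in DZ, in sKO (0.77 ± 0.14, adjusted p = 0.00813). Of its words 39.8% occur in other transcripts. Eif4a1, Eif2b3, Eif1a and Eif5a were higher in LZ in both genotypes, Eif4a1 by 0.56 in dKO and 0.36 in sKO, Eif2b3 by 0.53 in dKO and 0.40 in sKO, Eif1a by 0.49 in dKO and 0.38 in sKO, and Eif5a by 0.44 in dKO and 0.28 in sKO (limma, adjusted p at most 0.00502). With only the libraries compared Eif5a did not pass in sKO (adjusted p = 0.0506). Eif4a2 was higher in LZ as well, by 0.27 in dKO and 0.33 in sKO (limma, adjusted p = 0.00421 and 0.00232). Eif4h and Eif4ebp2 were lower in LZ, with differences of -0.21 in dKO and -0.36 in sKO for Eif4h, and for Eif4ebp2 of -0.29 in dKO and -0.31 in sKO. All 4 of these differences passed (limma, adjusted p at most 0.0193). In dKO, the call of Eif4h was lost without any one of the 4 dKO libraries (limma, adjusted p = 0.0686, 0.0998, 0.108 and 0.0694) and that of Eif4ebp2 without dKO DZ replicate 2 (adjusted p = 0.0511).

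**Figure D5:**
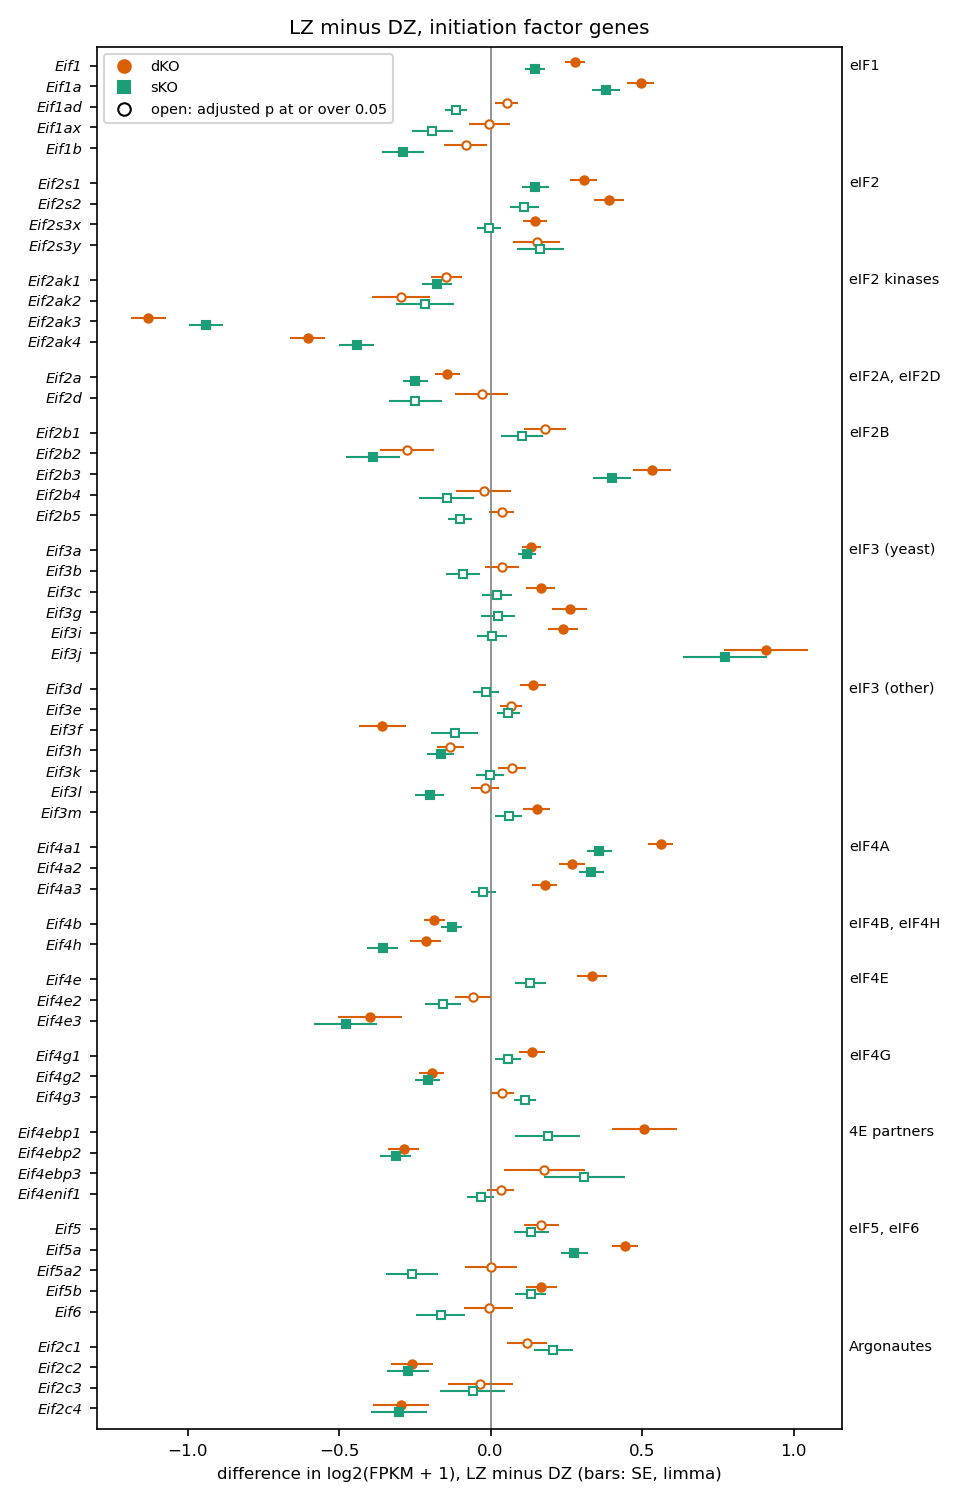
Difference between LZ and DZ libraries on the log2(FPKM + 1) scale for each member, in dKO and in sKO. Bars are the SE of the limma fit and filled symbols have an adjusted p under 0.05. Eif2ak3 lies farthest to the left and Eif3j farthest to the right in both genotypes.

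Other genes of the translation pathway are given from lists written down by role. In this comparison 18.4% of all genes tested rose and 12.7% fell in dKO LZ. Of 20 cofactors of mRNA loading, 6 rose (30.0%) and 1 fell (5.00%). Larp1, which represses terminal oligopyrimidine mRNAs downstream of mTORC1, had 36.7 and 37.2 FPKM in dKO LZ, against 28.8 and 27.2 FPKM in sKO LZ (0.39 ± 0.044, limma, adjusted p = 0.00207). Larp4, which binds poly(A) tails and their binding protein, had 24.8 and 24.6 FPKM in dKO LZ, against 20 and 20.01 FPKM in sKO LZ (limma, adjusted p = 0.00817, and 0.0501 without dKO LZ replicate 1). Pdcd4, an inhibitor of the eIF4A helicase that is degraded downstream of mTORC1, fell to 7.18 and 7.08 FPKM in dKO LZ, against 18.8 and 20.2 FPKM in sKO LZ (-1.33 ± 0.097, limma, adjusted p = 0.000887). In DZ it stood at 5.26 and 4.46 FPKM in dKO, against 7.001 and 8.24 FPKM in sKO (-0.56 ± 0.097, limma, adjusted p = 0.0187). That DZ call was lost without dKO DZ replicate 1, dKO DZ replicate 2 or sKO DZ replicate 2 (limma, adjusted p = 0.0645, 0.104 and 0.0728), with only the libraries compared (adjusted p = 0.0672) and without both LZ replicate 2 libraries (adjusted p = 0.06). Its fall in LZ was larger than that of any initiation factor. Pabpc1, the poly(A)-binding protein, was at 528 and 536 FPKM in dKO LZ and 522 and 473 FPKM in sKO LZ and did not pass (limma, adjusted p = 0.24). With dKO LZ replicate 1 left out 2 genes of the list were called, with dKO LZ replicate 2 left out 3, and with sKO LZ replicate 2 left out 4.

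A list of 11 genes of alternative initiation and start codon choice also held enzymes that modify proteins (Dph1, Dph2, Dhps, Dohh, Metap1 and Metap2). Of the 11, 6 rose in dKO LZ (54.5%, against 18.4% of all genes tested) and none fell. Those 6 were Denr, Bzw1, Bzw2, Dph1, Dohh and Metap2. Bzw1, an eIF5 mimic, was at 183 and 182 FPKM in dKO LZ, against 160.2 and 158 FPKM in sKO LZ (limma, adjusted p = 0.00663), and the methionine aminopeptidase Metap2 at 36.5 and 37.6 FPKM in dKO LZ, against 31.1 and 27.8 FPKM in sKO LZ (adjusted p = 0.0077). Without dKO LZ replicate 1 the list count was 1, with Metap2 still called and Bzw1 not (limma, adjusted p = 0.0501 for Bzw1, which was also lost with quantile normalization, at 0.0834). Of 13 mTORC1 and MAPK kinases and related enzymes that act on the factors, 1 rose, the phosphatase Ppm1g (127 and 128 FPKM in dKO LZ, against 105 and 100.2 FPKM in sKO LZ, limma, adjusted p = 0.00257), and none fell, with 7.69% higher. Leaving out sKO LZ replicate 1 or sKO LZ replicate 2 gave 2 in that list. Mknk2, a kinase of eIF4E, was at 137 and 141 FPKM in dKO LZ and 152 and 137 FPKM in sKO LZ (limma, adjusted p = 0.488).

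Of 17 readout and phosphatase genes of eIF2 phosphorylation, 4 rose in dKO LZ and none fell. Their share, 23.5%, is near the 18.4% of all genes tested that rose. Asns, asparagine synthetase and a target of ATF4, had 16.9 and 16.6 FPKM in dKO LZ, against 7.88 and 8.96 FPKM in sKO LZ (0.91 ± 0.07, limma, adjusted p = 0.000918). Psat1, of serine synthesis, had 95.4 and 98.5 FPKM in dKO LZ, against 65.5 and 66.8 FPKM in sKO LZ (0.54 ± 0.047, limma, adjusted p = 0.0011). The mRNA of Atf4 itself, whose control is mainly translational, was at 145 and 141 FPKM in dKO LZ and 133 and 117 FPKM in sKO LZ and did not pass (limma, adjusted p = 0.077), except without sKO LZ replicate 1 (adjusted p = 0.0196). Ppp1r15a, a regulatory subunit of the eIF2 phosphatase, differed between the libraries of a group in sKO. It read 20.02 and 18.8 FPKM in dKO LZ, against 51.2 and 15.1 FPKM in sKO LZ, and 19.6 and 19.3 FPKM in dKO DZ, against 47.7 and 16.5 FPKM in sKO DZ, so that replicate 1 was the higher sKO library in both zones (limma, adjusted p = 0.579 in LZ). Its name was chosen after its values were seen.

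After initiation, 3 of 8 elongation factors rose in dKO LZ (37.5%, against 18.4% of all genes tested) and none fell. Eef1e1, an accessory protein of the synthetase complex that the symbol places among them, was at 47.7 and 41.95 FPKM in dKO LZ, against 31.3 and 32.1 FPKM in sKO LZ (limma, adjusted p = 0.00407), and the exchange factor subunit Eef1d at 104 and 104 FPKM in dKO LZ, against 83.4 and 83.6 FPKM in sKO LZ (adjusted p = 0.00758). Of 5 termination and recycling factors, 3 rose in dKO LZ (60.0%) and 3 in dKO DZ, where 6.63% of all genes rose. The release factor Etf1 was at 82.1 and 80.2 FPKM in dKO LZ, against 62.2 and 61.8 FPKM in sKO LZ (0.38 ± 0.034, limma, adjusted p = 0.00113), and the ribosome splitting ATPase Abce1 at 70.05 and 67.98 FPKM in dKO LZ, against 50.7 and 52.9 FPKM in sKO LZ (0.41 ± 0.038, adjusted p = 0.00132). Of 8 mitochondrial factors 3 rose (37.5%) and 2 fell (25.0%, against 12.7% of all genes). Tufm was at 76.3 and 74.6 FPKM in dKO LZ, against 59.8 and 61.9 FPKM in sKO LZ (limma, adjusted p = 0.00544), and Gfm1 at 23.5 and 22.99 FPKM in dKO LZ, against 16.7 and 19.3 FPKM in sKO LZ (adjusted p = 0.0109, and 0.0616 without dKO LZ replicate 1). Gfm2 and Mtrf1l fell, Gfm2 to 12.1 and 11.8 FPKM in dKO LZ, against 14.2 and 13.7 FPKM in sKO LZ (limma, adjusted p = 0.0195), and Mtrf1l to 5.25 and 5.44 FPKM in dKO LZ, against 6.80 and 6.27 FPKM in sKO LZ (adjusted p = 0.0328). With dKO LZ replicate 1 left out 1 gene of the list was called, with dKO LZ replicate 2 left out 2, and with sKO LZ replicate 1 left out 3, and both falls were lost in each of those fits and with only the libraries compared, as was the rise of Gfm1 (limma, adjusted p = 0.0739 for Gfm2, 0.0922 for Mtrf1l and 0.054 for Gfm1). The fall of Mtrf1l was also lost with no filter and with quantile normalization (adjusted p = 0.0612 and 0.0516). The median LZ difference was 0.15 for the mRNA loading list, 0.22 for alternative initiation, 0.07 for the kinases, 0.18 for eIF2 phosphorylation, 0.16 for elongation, 0.38 for termination and 0.16 for the mitochondrial list, beside 0.02 over all genes tested.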

How the data were processed

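Libraries came from TRIzol RNA of about 30000 sorted cells and the NEBNext Ultra kit, per the labels' protocols, which do not state strand, so reads of overlapping antisense genes cannot be told apart. The submitters' processing notes name TopHat2 2.0.8, Cufflinks 2.1.1 and the mm9 build. Values deposited by the authors were FPKM per gene, in 1 table of 23234 genes and 8 libraries. The unit was read from the table and the tools named, and 1 closing row that repeats the library codes was dropped. Sequencing depth is not given, so no counting intervals were computed, and low FPKM steps gave relative depth only.

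The 10610 genes that reached 1 FPKM in 2 or more libraries were tested on log2(FPKM + 1) with limma 3.58.1 in R 4.3.3. The fit had 4 group means over all 8 libraries with an intensity trend, two-sided tests, 4 residual degrees of freedom and 2.46 prior ones. Benjamini-Hochberg adjustment ran over all genes tested within each of 5 comparisons, with a threshold of 0.05. A fold change on this scale understates that of low genes. A run on simulated data checked only that the code recovers large changes. It had fewer changed genes than the genotype comparisons called here and does not bear on the calls reported. Alternatives changed the pseudocount, the filter, the scaling, the trend, the libraries in the fit and the replicate block.

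The share of 50-base words of each member's longest coding transcript found in transcripts of other genes was computed from GENCODE M21. Promoters were taken from RefSeq (GRCm38.p6) by symbol.

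The members, lists and tests were chosen with earlier results of these data known. Library values are given for up to 4 members of each complex with the smallest p in dKO against sKO LZ cells, for the 3 largest zone differences and for a few genes fixed by name, with 2 genes per direction from each pathway list. The division of eIF3 by yeast counterpart follows textbook knowledge. Motifs were counted on both strands.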

Additional observations from a re-analysis of the deposited data

How the results depend on the processing

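Each alternative changed 1 choice. Leaving out a compared library left 1 in its group, and it lowered the calls over all genes in each genotype and zone comparison. Called members in dKO against sKO LZ cells (28) ranged from 19 to 29 when 1 library was left out and were 12 without both LZ replicate 2 libraries, a choice made after seeing the data. In dKO against sKO DZ cells (13) the count was 5 with only the libraries compared, 8 with the replicate block, 0 to 15 leaving out 1 library and 5 without both LZ replicate 2 libraries. For LZ against DZ it was, in dKO (32), 14 to 31 leaving out 1 library and 14 without both LZ replicate 2 libraries, and in sKO (24), 14 to 19, 12, and 11 with only the libraries compared. No member was called for the interaction under any alternative. Of the calls, 12 of 28, 0 of 13, 12 of 32 and 9 of 24 held under every alternative.

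Correlations of same-numbered deviations ran from -0.108 to 0.124 and not all were over 0.1, so the numbers were not taken to pair the libraries, although Ppp1r15a was higher in replicate 1 in both sKO zones. With the replicate block the counts were 26 in LZ, 8 in DZ, 24 for dKO zones and 20 for sKO zones, and Eif4ebp1, Eif2b1 and Mtrf1l lost their LZ calls (limma, adjusted p = 0.0508, 0.0639 and 0.0533).

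Higher genes made up 59.0% of all LZ genotype calls, but 45.5% under upper quartile scaling and 50.3% under quantile normalization. Over results for single genes that were called, 1649 alternatives kept the call and 410 lost it. Over those not called, 259 stayed so, 22 gained a call and 7 turned a direction: in LZ, Eif3m was -0.0514 (upper quartile), -0.0948 (quantile) and from -0.0406 to 0.0574 leaving out 1 library, Eif2ak1 from -0.0769 to 0.0094, Mknk2 from -0.1317 to 0.0228, and Pabpc1 -0.0145 (quantile). The causes were not tested.

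For pathway lists in LZ, mRNA loading (7) was 4 with only the libraries compared, 2 to 9 leaving out 1 library and 2 without both LZ replicate 2 libraries. Alternative initiation (6) was 1 to 6 and 0, eIF2 phosphorylation (4) 3 to 4 and 2, elongation (3) 2 to 4 and 1, and the mitochondrial list (5) 1 to 5 and 1, with 2 from only the libraries compared. The kinases (1) were 2 with pseudocounts of 0.1 and 0.5, the 5 FPKM filter, upper quartile scaling and no trend, 3 with quantile normalization, 1 to 2 leaving out 1 library and 0 without both LZ replicate 2 libraries. Since FPKM holds no counts, depth limits on low members such as Eif2c4 and Eif4e1b could not be given.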
